A study of Mus musculus with 32 samples.

Results

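Hyperoxic mouse lung at P14.5 (P for postnatal day) was compared with hyperoxic lung at P5.5 for its microRNAs (miRNAs). The 8 arrays were those labelled hyperoxia and harvested at P14.5 (4 arrays, replicates 29 to 32) or at P5.5 (4 arrays, replicates 21 to 24), out of 32 arrays in the series. All 1079 mouse miRNAs on the array were considered, of which 264 could be tested. The other arrays of the series came from pups in normoxia at the same ages, and from both exposures at P2.5 and P3.5, with 4 arrays in each of 8 groups. Pups were assigned to normoxia or hyperoxia at random on the day of birth, the labels name no strain or transgene, and the lungs of every group were perfused with PBS until white. The labels give isoflurane as the euthanasia agent at P14.5 and pentobarbital at the earlier ages, whereas the study's methods name pentobarbital for all. If the labels hold, age and agent cannot be told apart. The comparison asked how the miRNAs of a lung under continued oxygen exposure moved from the peak of alveolar formation to the age at which bulk alveolar formation has ended.

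Hyperoxia of newborn mice is a model of bronchopulmonary dysplasia, a lung disease of preterm infants in which the gas exchange units (alveoli) stop forming. A miRNA is a short RNA that guides a silencing complex to messenger RNAs, mainly through its seed, the bases near its 5′ end, so miRNAs with 1 seed can share targets. Some miRNAs are made from clusters that are transcribed together, such as those of the imprinted Dlk1-Dio3 region, which are abundant in the fetus and decline after birth.

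The mature sequences of the miRNAs on which the results turn are printed first, 5′ to 3′, from RefSeq (GRCm38.p6), with the seed (bases 2 to 8) in capitals. Of the 264 tested miRNAs, 50 had no match by name and are not printed. The first set came from a cluster on the minus strand of chromosome X, at chrX:53054306-53054327 (miR-322-5p), chrX:53054269-53054289 (miR-322-3p), chrX:53054027-53054049 (miR-503-5p), chrX:53049415-53049436 (miR-542-3p) and chrX:53048008-53048029 (miR-450b-3p). They are shown because the cluster held 4 of the 6 largest fitted falls.
miR-322-5p: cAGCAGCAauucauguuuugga
miR-322-3p: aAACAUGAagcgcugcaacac
miR-503-5p: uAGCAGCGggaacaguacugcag
miR-542-3p: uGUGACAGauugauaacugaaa
miR-450b-3p: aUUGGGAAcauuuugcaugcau
The seed of miR-322-5p is also that of the miR-15/16 family, here shown by miR-195-5p at chr11:70235062-70235082 (plus strand) and miR-497-5p at chr11:70234730-70234751 (plus strand), which lie beside each other in the genome.
miR-195-5p: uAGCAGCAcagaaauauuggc
miR-497-5p: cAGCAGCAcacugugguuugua
A further shared seed was that of the miR-34 family, printed for miR-34a-5p at chr4:150068473-150068494 (plus strand), miR-34b-5p at chr9:51103610-51103632 (minus strand) and miR-449a-5p at chr13:113037549-113037570 (plus strand), since its members did not move alike.
miR-34a-5p: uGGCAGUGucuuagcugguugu
miR-34b-5p: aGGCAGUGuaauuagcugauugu
miR-449a-5p: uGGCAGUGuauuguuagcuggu
The miR-130/301 seed was the only seed with at least 3 matched and tested members of which all fell. It is printed for miR-130a-3p at chr2:84741116-84741137 (minus strand), miR-130b-3p at chr16:17124071-17124092 (minus strand) and miR-301a-3p at chr11:87113054-87113076 (plus strand).
miR-130a-3p: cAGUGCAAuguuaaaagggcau
miR-130b-3p: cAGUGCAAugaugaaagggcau
miR-301a-3p: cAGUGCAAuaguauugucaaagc
The pair miR-146a-5p at chr11:43374435-43374456 (minus strand) and miR-146b-5p at chr19:46342790-46342811 (plus strand) is shown because these miRNAs of 1 seed went in opposite directions.
miR-146a-5p: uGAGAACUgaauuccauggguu
miR-146b-5p: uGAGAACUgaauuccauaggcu
Last come miR-21-5p at chr11:86584120-86584141 (minus strand), the rise that differed most from normoxia, and miR-5128 at chr2:37688212-37688234 (minus strand) and miR-5126 at chr1:84695890-84695911 (plus strand), examples of the largest rises.
miR-21-5p: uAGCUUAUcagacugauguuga
miR-5128: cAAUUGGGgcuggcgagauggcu
miR-5126: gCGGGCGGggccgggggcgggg

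Each sample carried a synthetic RNA that reports on labelling. Its signal lay outside the range accepted by the scanner software on 2 of the 4 hyperoxia P14.5 arrays, replicate 29 (log10 signal 2.46) and replicate 31 (2.13), and on normoxia P14.5 replicate 28 (2.42). On the hyperoxia arrays the 75th percentile of signal was 803 to 1290 intensity units at P5.5, and 301, 1222, 198 and 752 on replicates 29, 30, 31 and 32 at P14.5. Between 253 and 303 miRNAs were well above background per array at P5.5, and 206, 331, 165 and 282 on the 4 arrays of P14.5. The detection limit, the lowest scaled signal of a probe well above background, was 3.35 to 4.01 on the log2 scale at P5.5 and 5.33, 3.55, 6.71 and 3.84 on replicates 29 to 32, so levels below these on replicates 29 and 31 give only a bound. The P14.5 arrays were also less alike, with a median SD over miRNAs of 0.65 on the log2 scale against 0.13 at P5.5, and a lowest Pearson correlation between replicates, across miRNAs, of 0.798 against 0.976. Within P14.5, replicates 30 and 32, of accepted labelling, correlated at 0.959. Many of the results below, though not all, are also given without the 3 arrays of low labelling. The 8 arrays lay on 3 slides that each held both ages, with replicates 29 and 31 on the same slide.

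Values below are log2 of the array signal scaled between arrays, so a change of 1 is a doubling or halving. In hyperoxia, 36 miRNAs were higher and 52 lower at P14.5 than at P5.5 by limma with Benjamini-Hochberg adjustment at 0.05, which was 33.3% of the 264 tested (13.6% higher, 19.7% lower). Of these, 35 rises and 26 falls were at least 2-fold. The arrays of the ages did not overlap for 128 miRNAs, or 48.5%. The median change over all 264 was -0.34. Without the low-labelling arrays 39 were higher (14.8%) and 102 lower (38.6%), and 83 of the 88 calls held. All 88 kept their direction, which for 84 of them had to be so because their ages did not overlap. Within each of the 3 slides, each of the 52 falls was negative and each of the 36 rises positive. This adds nothing for the 84 calls without overlap, whose sign within a slide was fixed. Slide as a fixed block left 47 calls (27 higher, 20 lower). The count rested on single arrays: it was 48, 12, 34 and 9 without P5.5 replicates 21, 22, 23 and 24, and 83, 19, 141 and 96 without P14.5 replicates 29, 30, 31 and 32. Among the 16 miRNAs named as the 8 largest rises and 8 largest falls, the calls lost in this way had adjusted p-values from 0.0501 to 0.0792. These 16 were picked only among miRNAs whose ages did not overlap. Scaling by the percentile of all probes gave 27 higher and 97 lower around a median change of -1.21, and normexp background correction gave 26 higher and 2 lower around a median of 0.61. The methods' t-test, at the same threshold, gave 15 after adjustment (1 higher, 14 lower) and 99 at an unadjusted p under 0.05, where limma gave 118.

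**Figure D1:**
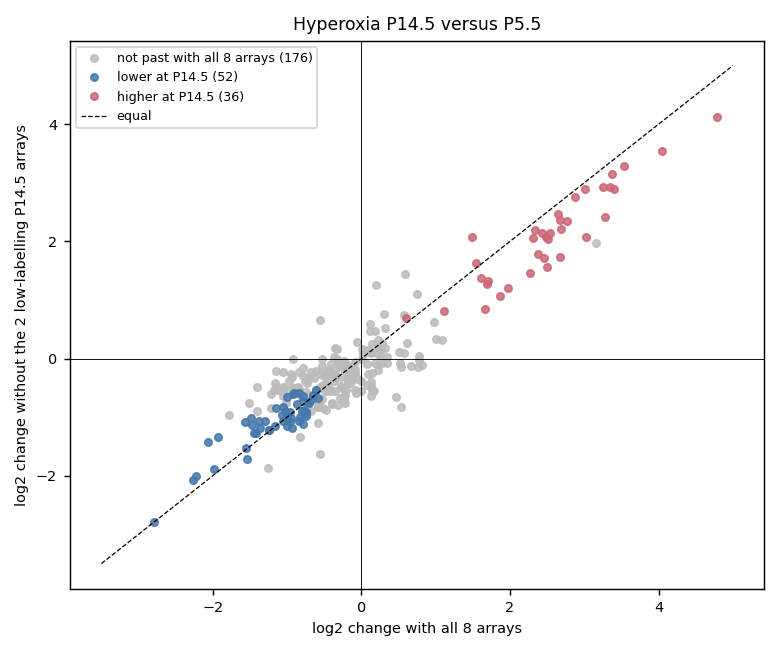
Log2 change from P5.5 to P14.5 in hyperoxic lung for 264 miRNAs, with all 8 arrays (x axis) and without the 2 low-labelling P14.5 arrays (y axis); each point is a miRNA, coloured by its call with all 8 arrays, and the dashed line marks equal change. The 36 rises and 52 falls keep their direction, which was fixed for the 84 of them whose ages do not overlap. Most rises lie below the line, with smaller changes once the low-labelling arrays are left out.

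Among the 6 largest fitted falls 4 were of the X-linked miR-322/miR-503 cluster, and miR-449a-5p and miR-335-5p were the others. Its miRNAs miR-322 and miR-503 are known to slow the cell cycle. Of its 8 tested members 7 fell and the median change was -1.75, against -0.34 for all miRNAs tested and 19.7% of them lower. This median lay below that of all miRNAs by 0.31 to 2.34 under the 20 settings in which lists were compared, single arrays left out not among them, but with normexp the cluster's own median was 0.29 and 1 member fell. Without the low-labelling arrays 8 of 8 fell, where 38.6% of all miRNAs did. Only 1 of the 8, miR-322-5p, was detected on all 4 P14.5 arrays. The others could be tested only through P5.5, where they were higher, and the sizes of their falls are uncertain. The log2 levels of miR-322-5p were 10.75, 10.97, 10.91 and 11.04 at P5.5 and 9.34, 8.59, 7.55 and 9.08 at P14.5. All P14.5 arrays lay below all P5.5 arrays, with the lowest on replicate 31. The fall was 2.27 ± 0.37 (SE, n = 4 arrays per age), or 4.84-fold (adjusted p = 0.00822), and 2.08 without the low-labelling arrays. It stayed past the threshold on leaving out each array in turn.

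The levels of miR-503-5p were 6.40, 6.28, 6.23 and 6.63 at P5.5 and 4.59, 4.46, 4.03 and 4.54 at P14.5, where 2 of the 4 arrays had a probe well above background. The groups were apart, and the fitted fall was 1.98 ± 0.20 (adjusted p = 0.000836) and 1.88 without the low-labelling arrays. The levels on replicates 29 and 31, the P14.5 arrays of slide 3, were under their detection limits. Within slides 4 and 5 the level fell by 1.91 and 1.77. The other strand of the miR-322 hairpin, miR-322-3p, averaged 3.99 ± 0.23 (SD, n = 4) at P5.5 and was at the floor of the scale (1.20) on all 4 P14.5 arrays. Only its longest probe was well above background there, on replicate 30, so no fold is given (adjusted p = 4.65e-05).

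On replicates 29 and 31 the levels of miR-542-3p, miR-450a-5p and miR-542-5p were also under the limit, and those of miR-450b-3p were so on all 4 P14.5 arrays. The levels of miR-542-3p were 6.34, 6.27, 6.29 and 6.41 at P5.5 and 5.24, 5.23, 3.36 and 5.24 at P14.5. The other P14.5 arrays sat within a narrow band and replicate 31 was far lower, so that the fall of 1.56 became 1.09 without the low-labelling arrays (adjusted p = 0.0269 and 0.00113). The levels of miR-450b-3p were 4.89, 5.01, 5.04 and 5.09 at P5.5 and 3.77, 3.54, 1.20 and 3.80 at P14.5, again with replicate 31 lowest, and the fall of 1.93 became 1.34. These calls needed every P5.5 array and P14.5 replicate 30: on leaving out 1 of these the adjusted p was 0.0653, 0.0755, 0.0767, 0.0771 and 0.0581 for miR-450b-3p, and 0.0609, 0.0677, 0.0685, 0.0728 and 0.0524 for miR-542-3p. Of the others, miR-542-5p fell by 1.44 (adjusted p = 0.0156; 0.0591, 0.0587 and 0.0501 without P5.5 replicate 22 or 24 or P14.5 replicate 30) and miR-450a-5p by 1.38 (adjusted p = 0.00822), and miR-351-5p was -1.26 (adjusted p = 0.201). With normexp, the fitted changes of miR-503-5p, miR-450b-3p, miR-542-3p and miR-322-3p turned positive (0.06, 0.54, 0.21 and 0.67).

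The remaining large falls were miR-449a-5p, described with the miR-34 family, miR-150-5p, described with the white blood cell miRNAs, miR-377-3p of the Dlk1-Dio3 region and miR-335-5p, which is made from an intron of the imprinted Mest gene. The levels of miR-335-5p were 7.70, 7.65, 8.10 and 7.83 at P5.5 and 6.11, 6.17, 4.08 and 6.63 at P14.5. Replicate 31 was again lowest, under its detection limit of 6.71, so the size of the fall is uncertain. The fall of 2.07 ± 0.51 (adjusted p = 0.0211) became 1.42 (adjusted p = 0.00298) without the low-labelling arrays. Its adjusted p was 0.0622, 0.0591, 0.0608 and 0.0524 without P5.5 replicate 22, 23 or 24 or P14.5 replicate 30.

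**Figure D2:**
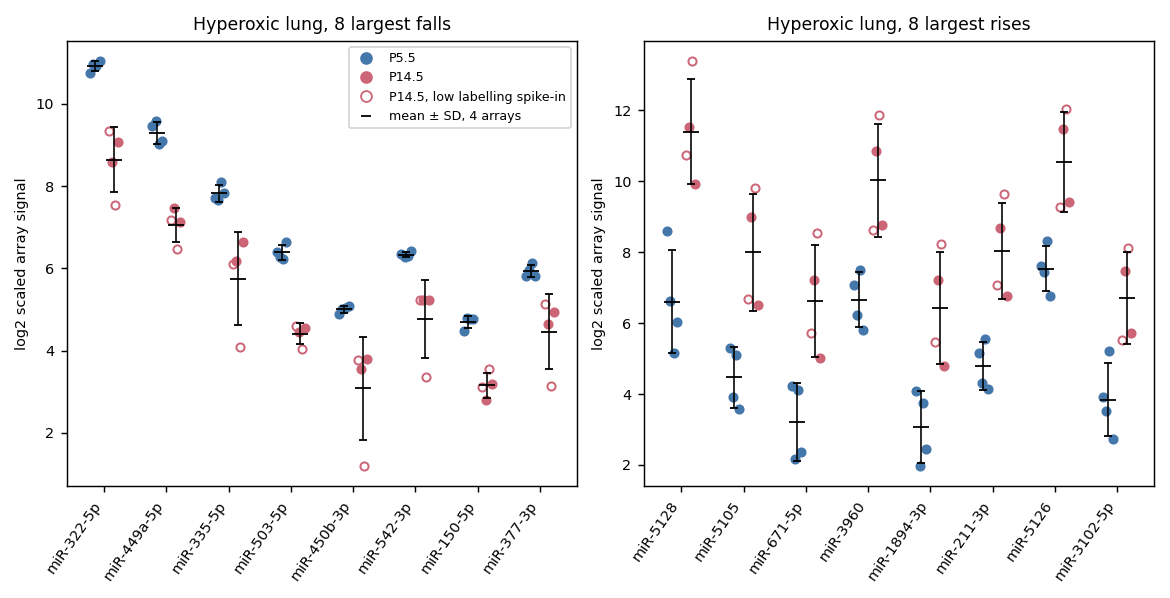
Log2 scaled array signal of the 8 largest falls (left) and 8 largest rises (right) in hyperoxic lung; points are the 4 arrays of P5.5 (blue) and of P14.5 (red, open for the 2 low-labelling arrays), and bars give the mean ± SD. The ages do not overlap for any of the 16, as the rule that picked them required. The falls start from tight P5.5 groups, miR-322-5p from 10.92 ± 0.13, while the P14.5 points of the rises spread widely, miR-5128 from 9.92 to 13.39.

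In the miR-34 family, p53-induced miRNAs that restrain proliferation, with the miR-449 cluster of multiciliated cells, 1 of 5 tested members fell and 0 rose, a share like the 19.7% lower among all miRNAs. That member was miR-449a-5p, at 9.46, 9.59, 9.02 and 9.10 at P5.5 and 7.18, 7.46, 6.48 and 7.13 at P14.5. The groups lay more than 1 log2 unit apart, and the fall of 2.23 ± 0.26 (4.69-fold, adjusted p = 0.00137) was past the threshold under all 27 alternatives, by 1.29 to 3.15. For miR-34a-5p the levels were 10.87, 10.43, 10.22 and 10.59 at P5.5 and 10.41, 10.89, 10.89 and 10.80 at P14.5. The ages overlapped, with a difference of 0.22 (95% interval -0.26 to 0.70, adjusted p = 0.438) that turned to -0.70 when arrays were scaled by the percentile of all probes. Of its relatives, miR-34b-5p differed by -0.56 (adjusted p = 0.0775) and miR-34c-5p by -0.48 (adjusted p = 0.0816). The 3p strand miR-34c-3p, known to be the minor product of its hairpin, went from 3.53 ± 0.15 to 2.13 ± 1.09 (adjusted p = 0.0573), with 1 of 4 P14.5 arrays well above background. Members that share the seed printed above thus included 1 that fell and others with no detected change.

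The miR-15/16 family holds miRNAs of cell cycle exit. Of the 6 tested miRNAs with the seed of miR-322-5p only miR-322-5p fell, and their median was -0.58. The list as fixed also held miR-322-3p, the other strand of the hairpin with a seed of its own, and gave 2 falls among 7 (median -0.64). The members not from the X chromosome ran from -0.36 (miR-497-5p) to -0.85 (miR-195-5p), with adjusted p-values from 0.104 to 0.228. Of all miRNAs tested, 19.7% fell. In the miR-17 clusters, which promote proliferation and lung growth before birth, 5 of 10 fell and 0 rose (median -0.69). The falls were miR-19a-3p (0.79, adjusted p = 0.0211), miR-19b-3p (0.78, adjusted p = 0.0228), miR-17-3p (0.71, adjusted p = 0.0323), miR-92a-3p (0.67, adjusted p = 0.0228) and miR-106b-5p (0.61, adjusted p = 0.0321). All 5 calls were lost without any P5.5 array or without P14.5 replicate 30 (adjusted p from 0.0524 to 0.104), those of miR-17-3p and miR-106b-5p also without replicate 29 (0.0681 and 0.0589). Without the low-labelling arrays 7 of the 10 fell, where 38.6% of all miRNAs did, and with normexp 0 of the 10 passed. At P14.5 miR-17-3p was well above background on 2 of 4 arrays, so the size of its fall is uncertain.

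The seed shared by the miR-130/301 miRNAs gave 3 falls among 3 tested members, where 19.7% of all miRNAs tested fell. This seed was picked out after its values had been seen. The levels of miR-130a-3p were 11.42, 11.38, 11.34 and 11.41 at P5.5 and 10.89, 10.67, 10.54 and 10.86 at P14.5. The P5.5 arrays differed by less than 0.1 and all P14.5 arrays lay below them, for a fall of 0.65 ± 0.16 (adjusted p = 0.0211). Falls of 0.80 ± 0.19 for miR-130b-3p (adjusted p = 0.0211) and 1.03 ± 0.31 for miR-301a-3p (adjusted p = 0.0354) went with these. Each of the 3 calls was lost without any P5.5 array or without P14.5 replicate 30 (adjusted p from 0.0524 to 0.0995). A further member by name, miR-301b-3p, was not matched in the sequence table. It averaged 2.76 ± 0.25 at P5.5 and was not well above background on any P14.5 array (adjusted p = 0.00137).

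Of 26 tested miRNAs of the Dlk1-Dio3 region, an imprinted cluster on chromosome 12 that is high in the fetal lung, 14 fell and 1 rose (median -0.83). Over all miRNAs tested 19.7% fell and 13.6% rose. Without the low-labelling arrays 24 of the 26 fell and 1 rose, where 38.6% of all miRNAs fell. With normexp 0 of the 26 fell, where 2 of all 264 did. Of the 14 falls, only those of miR-127-3p, miR-136-5p and miR-434-3p were detected on all 4 P14.5 arrays. The others could be tested only through P5.5, where they were higher, and the sizes of their falls are uncertain. Levels of miR-377-3p were 5.82, 5.97, 6.12 and 5.81 at P5.5 and 5.13, 4.64, 3.14 and 4.93 at P14.5, for a fall of 1.47 ± 0.42 (adjusted p = 0.0293). Replicate 31 was lowest, and the fall without the low-labelling arrays was 1.14. Without a P5.5 array or P14.5 replicate 30 its adjusted p was 0.0613 to 0.0792. Others were miR-431-5p, which fell by 1.30 (adjusted p = 0.0228), and miR-136-3p, which went from 3.78 ± 0.21 to a level that was not well above background on any P14.5 array (adjusted p = 0.0211). The call of miR-431-5p was lost without any P5.5 array or P14.5 replicate 30 (adjusted p from 0.0543 to 0.0696). For miR-136-3p it was lost without P5.5 replicate 22, 23 or 24 or P14.5 replicate 30 (0.0622, 0.0591, 0.0608 and 0.0501). The exception was miR-494-3p, at 9.54, 8.18, 7.18 and 8.31 at P5.5 and 10.21, 11.11, 11.82 and 9.79 at P14.5. It rose by 2.43 ± 0.59 (adjusted p = 0.0211), with both ages spread widely, and missed the threshold without P5.5 replicate 22, 23 or 24 or P14.5 replicate 30 (adjusted p = 0.0622, 0.0557, 0.0608 and 0.0555).

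Lists of miRNAs known from single cell types were read next. In bulk RNA, fewer cells of a type and less of a miRNA per cell cannot be told apart. Against these lists stand the 19.7% lower and 13.6% higher of all miRNAs. In the miR-200 family, which keeps epithelial cells from a mesenchymal state, 2 of 5 fell and 0 rose. The levels of miR-200a-3p were 8.97, 9.01, 9.00 and 9.10 at P5.5 and 8.29, 8.23, 7.85 and 8.26 at P14.5, without overlap, for a fall of 0.86 ± 0.17 (adjusted p = 0.0153; 0.0591 and 0.0587 without P5.5 replicate 22 or 24). The fall of miR-200b-3p was 0.72 (adjusted p = 0.0244; 0.0581 to 0.0781 without any P5.5 array or P14.5 replicate 30), while miR-200c-3p, miR-141-3p and miR-429-3p ran from -0.49 to 0.09. The endothelial strands miR-126-3p and miR-126-5p, which support vessel growth, differed by -0.84 and -1.17 (adjusted p = 0.0861 and 0.0769), and by -0.52 and -0.54 without the low-labelling arrays. Their summed signal was 6064 to 6968 at P5.5 and 1769 to 5010 at P14.5. Of the 6 smooth muscle and mesenchymal miRNAs (miR-143, miR-145, miR-199 and miR-214) 0 passed the test, and their differences ran from -0.49 to 0.13.

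Among the white blood cell miRNAs 2 of 5 fell and 0 rose. The lymphocyte miRNA miR-150-5p was at 4.47, 4.79, 4.76 and 4.76 at P5.5 and at 3.12, 2.80, 3.54 and 3.18 at P14.5. All 4 of the P14.5 levels were under the detection limits of their arrays, only 2 arrays had a probe well above background, and no fold is given. The fitted fall of 1.54 ± 0.20 (adjusted p = 0.00312) was past the threshold on leaving out each array, and normexp gave a change of 0.60. For miR-142-3p of all blood lineages the difference was 0.18 (adjusted p = 0.629), and for the neutrophil miRNA miR-223-3p 0.12 (adjusted p = 0.799). The summed signal of the list was 901 to 1079 at P5.5 and 563 to 1556 at P14.5. The erythroid miRNAs miR-451, miR-144-3p and miR-144-5p differed by -1.05, -0.72 and -1.05 (0 of 3 past the threshold). Their summed signal was 1702 to 2762 at P5.5 and 453 to 1831 at P14.5, and their part in the other results was not tested. The muscle and heart miRNAs also gave 0 calls of 3, with miR-1a-3p from 6.20 to 4.98 on average (adjusted p = 0.447). Of 8 miRNAs of other organs, only the endocrine miRNA miR-375-3p was detected. Its fitted fall was 1.24 (adjusted p = 0.0175), with 2 of 4 P14.5 arrays well above background, so the size is uncertain. Without P5.5 replicate 22 or 24 or P14.5 replicate 30 its adjusted p was 0.0622, 0.0587 and 0.0501. The other 7, those of miR-122, miR-124 and miR-9, were not well above background on any hyperoxia array of these ages.

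The miR-30 family, broadly expressed in epithelium and mesenchyme, had 4 falls among 9 members and 0 rises, where 19.7% of all miRNAs tested fell. Without the low-labelling arrays 8 of the 9 fell, where 38.6% of all miRNAs did. Levels of miR-30c-5p were 9.96, 10.36, 10.23 and 10.32 at P5.5 and 9.75, 8.70, 8.33 and 9.44 at P14.5, a fall of 1.16 ± 0.32 (adjusted p = 0.0275). The ages did not overlap, and the call was lost without any P5.5 array or without P14.5 replicate 30 (adjusted p from 0.0543 to 0.0772). Smaller falls were those of miR-30b-5p (0.90, adjusted p = 0.0459) and miR-30e-3p (0.74, adjusted p = 0.0354), and miR-30d-3p was not well above background on any P14.5 array (adjusted p = 0.0175). The calls of miR-30b-5p and miR-30e-3p were lost on leaving out the same 5 arrays (adjusted p from 0.0702 to 0.117), and miR-30b-5p lost its call also without replicate 29 (0.0672). The call of miR-30d-3p was lost without P5.5 replicate 22 or 24 or P14.5 replicate 30 (0.0622, 0.0589 and 0.0501). In the let-7 family, miRNAs of developmental timing, 0 of 11 passed the test, with a median of -0.78 that became -0.27 without the low-labelling arrays. The 3 miR-29 members, which repress collagen and other matrix genes, lay at 0.31 to 0.58 with 0 calls, and 2 of them were higher without the low-labelling arrays.

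**Figure D3:**
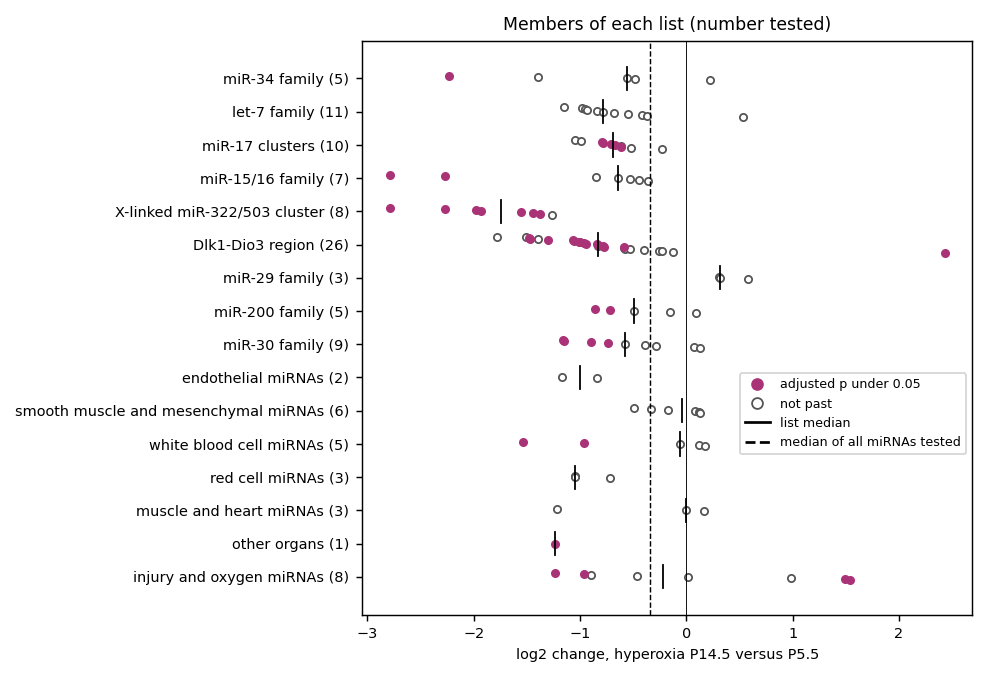
Log2 change from P5.5 to P14.5 in hyperoxic lung for each tested member of 16 lists; filled points passed an adjusted p of 0.05, the short bar is the list median and the dashed line the median of all 264 miRNAs tested (-0.34). The X-linked miR-322/miR-503 cluster lies farthest to the left (median -1.75), and the lone point to the right in the Dlk1-Dio3 region is miR-494-3p (2.43).

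Of the miRNAs of injury and oxygen response, 2 rose and 2 fell among 8 tested, where 13.6% of all miRNAs rose and 19.7% fell. Without the low-labelling arrays 3 of the 8 rose and 4 fell, where 14.8% and 38.6% of all miRNAs did. A miRNA of fibrosis and inflammation, miR-21-5p, was at 13.05, 12.51, 12.32 and 12.38 at P5.5 and at 14.27, 13.76, 13.77 and 14.64 at P14.5. All P14.5 arrays were above all P5.5 arrays, and the rise of 1.54 ± 0.27 (2.91-fold, adjusted p = 0.00995) was 1.63 without the low-labelling arrays. It was positive under all 27 alternatives, by 0.62 to 1.77, and missed the threshold in 3 of them: scaled by the percentile of all probes (0.62, adjusted p = 0.347), in the deposited series values (1.02, adjusted p = 0.127) and without P5.5 replicate 24 (adjusted p = 0.0506). The level of miR-146b-5p, which damps inflammatory signalling, was 4.63, 4.17, 4.07 and 4.15 at P5.5 and 6.05, 5.98, 4.25 and 6.70 at P14.5. Replicate 31 read within the range of the P5.5 arrays, but under its own detection limit of 6.71, so its level gives only a bound. The rise of 1.49 (adjusted p = 0.0447), of uncertain size, was 2.08 (adjusted p = 0.0023) without the low-labelling arrays. It missed the threshold on leaving out any array other than replicate 31 (adjusted p from 0.0658 to 0.112).

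Its near relative miR-146a-5p, also a brake on inflammatory signalling, was at 7.15, 7.15, 7.27 and 7.19 at P5.5 and at 6.38, 6.13, 5.97 and 6.43 at P14.5. The ages were apart by more than 0.7, with a fall of 0.96 ± 0.17 (adjusted p = 0.0107; 0.0509 and 0.0544 without P5.5 replicate 22 or 24), which normexp turned to 0.01. The hypoxia-induced miR-210-3p was at 5.58, 5.82, 6.09 and 5.53 at P5.5 and at 4.73, 4.71, 4.26 and 4.35 at P14.5, where 2 arrays were well above background. The levels on replicates 29 and 31 were under the detection limits of those arrays, so the size of the fitted fall, 1.24 ± 0.21 (adjusted p = 0.00822), is uncertain. It stayed past the threshold on leaving out each array in turn. In normoxia the change of miR-210-3p between these ages was -1.13. The difference between exposures was -0.11 (limma interaction test, adjusted p = 0.746). The fitted changes in hyperoxia of miR-221-3p, miR-222-3p, miR-31-3p and miR-31-5p were 0.02, 0.98, -0.90 and -0.46, with 0 calls.

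The rises were of another kind. Among miRNAs with numbers of 1000 or above, a group formed after its values had been seen, 26 of 38 tested rose and 0 fell, and among those with lower numbers 10 of 226 rose and 52 fell. Numbers were given in the order of registration, and functions of most high-numbered miRNAs are little known. The level of miR-5128 was 8.59, 6.63, 5.16 and 6.04 at P5.5 and 10.75, 11.54, 13.39 and 9.92 at P14.5. All arrays of P14.5 were higher, but each age spanned over 3 log2 units, and the rise of 4.79 ± 0.90 (adjusted p = 0.0127) was 4.13 without the low-labelling arrays. Without P5.5 replicate 24 its adjusted p was 0.0521. Levels of miR-5126 were 7.62, 7.45, 8.31 and 6.77 at P5.5 and 9.27, 11.47, 12.04 and 9.40 at P14.5. The rise was 3.01 ± 0.68 (adjusted p = 0.0199), with adjusted p-values of 0.0614, 0.0608 and 0.0524 without P5.5 replicate 22 or 24 or P14.5 replicate 30.

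The other large rises were miR-5105 (3.53), miR-671-5p (3.40), miR-3960 (3.37), miR-1894-3p (3.35), miR-211-3p (3.25) and miR-3102-5p (2.87), with adjusted p-values from 0.0156 to 0.0211. Each of these calls was lost without P5.5 replicate 22 or 24 or P14.5 replicate 30, and that of miR-3102-5p also without replicate 21 (adjusted p from 0.0501 to 0.0661). Among the 36 rises, replicate 31 was the highest P14.5 array for 33, and replicate 32 the lowest for 27. The median SD at P14.5 of the 26 high-numbered rises was 1.29, against 0.39 for the 52 falls. In normoxia 24 of the 26 also had a positive change, and the test of a difference between exposures passed for 2 of the 26. The mature sequences of rises had a median GC content of 57.9% (n = 25 matched), against 45.5% for falls (n = 45) and 45.5% for miRNAs not called (n = 144), and their longest probes a median length of 15 bases against 19 and 18. Fewer than 4 of 4 P5.5 arrays were well above background for 14 of the 36 rises.

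Whether the change between the ages differed from that in normal lung was tested as an interaction with the 8 normoxia arrays of P5.5 and P14.5 (16 arrays). It passed for 63 of 275 miRNAs, or 22.9%, of which 26 had a higher change in hyperoxia than in normoxia (9.45%) and 37 a lower one (13.5%). At an unadjusted p under 0.05 there were 93. Without the 3 low-labelling arrays 47 were higher (17.1%) and 66 lower (24%), with 62 calls in common. Without hyperoxia P14.5 replicate 31 alone there were 106. The scaling mattered: the count was 2 (0 higher, 2 lower) when scaled by the percentile of all probes, 15 (6 and 9) with quantile normalization, 25 (17 and 8) with the scanner's total gene signal and 6 (3 and 3) with normexp, and the median difference over all miRNAs went from 0.07 to -0.42, -0.16, 0.16 and 0.91. Of the 88 changes in hyperoxia, 57 had no interaction call.

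The 26 positive differences were mostly smaller falls in hyperoxia: 19 miRNAs had negative changes in both exposures, and 7 a positive change in hyperoxia and a negative one in normoxia. From the Dlk1-Dio3 region came 16 of the 26. The median change of that region was -0.83 in hyperoxia (26 members) and -1.64 in normoxia. Of its 28 tested members 16 passed with 0 in the other direction, where 9.45% of all miRNAs had a positive difference. At P14.5, 7 miRNAs of the region were detected on all 4 arrays in hyperoxia and 11 in normoxia. The median difference of the region lay above that of all miRNAs by 0.24 to 1.15 under the 19 settings in which lists were compared, single arrays left out not among them, although 0 members passed when scaled by the percentile of all probes. An example is miR-300-3p, at 5.99, 5.97, 6.10 and 5.80 at P5.5 and 5.82, 5.21, 6.47 and 5.43 at P14.5 in hyperoxia, where the ages overlapped. In normoxia its mean went from 6.28 to 4.44, and the difference between the changes was 1.60 ± 0.31 (adjusted p = 0.00269). With the arrays of low labelling left out it was 1.16 (adjusted p = 0.00084).

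The largest positive difference was that of miR-21-5p. Its mean went from 12.57 ± 0.33 to 14.11 ± 0.42 in hyperoxia and from 11.98 ± 0.13 to 11.20 ± 0.16 in normoxia. The rise in hyperoxia and the fall of 0.78 in normoxia (adjusted p = 0.00708) differed by 2.32 ± 0.29 (adjusted p = 0.000115), and by 2.43 without the low-labelling arrays. Positive differences followed for miR-5109, at 1.98 ± 0.39 (adjusted p = 0.00269), and miR-3096b-3p, at 1.78 ± 0.44 (adjusted p = 0.00964). For miR-5109 the means went from 9.35 to 11.06 in hyperoxia and from 9.70 to 9.43 in normoxia. For miR-3096b-3p the hyperoxia change was 0.61 (adjusted p = 0.277), and in normoxia it fell by 1.18. The member of the miR-130/301 seed that differed was miR-130b-3p, which fell by 2.00 in normoxia and by 0.80 in hyperoxia (difference 1.20 ± 0.20, adjusted p = 0.00103).

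Among the 37 negative differences, 27 miRNAs had a negative change in hyperoxia and a positive one in normoxia, 8 had negative changes in both, and 2 positive changes in both. That of miR-150-5p, with all P14.5 levels in hyperoxia under the detection limits, came from a mean that went from 5.14 to 5.41 in normoxia and from 4.69 to 3.16 in hyperoxia (difference -1.80 ± 0.21, adjusted p = 6.93e-05). The difference for miR-126-5p was -1.70 ± 0.49 (adjusted p = 0.0224), for miR-195-5p -1.61 ± 0.38 (adjusted p = 0.00822) and for miR-551b-3p -1.57 ± 0.21 (adjusted p = 0.000155). In hyperoxia miR-551b-3p was at 6.94, 7.10, 7.08 and 7.24 at P5.5 and at 6.15, 5.88, 6.11 and 6.22 at P14.5, a fall of 1.00 ± 0.17 (adjusted p = 0.00822; 0.0506 without P5.5 replicate 24), and in normoxia it rose by 0.57 (adjusted p = 0.00645). With normexp the differences of miR-150-5p and miR-126-5p were 0.74 and 0.08.

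Of all miRNAs tested for a difference between exposures, 13.5% had a negative one. By list, negative differences were called for 6 of 8 miRNAs of the X-linked cluster, 5 of 9 of the miR-30 family, 4 of 7 of the miR-15/16 family, both endothelial strands and 2 of 5 white blood cell miRNAs, with 0 positive ones in each. The lists share members, so these counts are not separate. Both miR-322 strands count in the X-linked cluster and the miR-15/16 family, and miR-146a-5p in the white blood cell and the injury lists. In the cluster the difference was -1.84 for miR-322-3p (adjusted p = 0.000395), -1.27 for miR-322-5p (adjusted p = 0.0327), -0.89 for miR-503-5p (adjusted p = 0.00448) and -1.53 for miR-542-3p (adjusted p = 0.0249). For miR-322-3p the size and p-value rest on hyperoxia P14.5 levels that all lay at the floor. With normexp the differences of miR-322-3p, miR-503-5p and miR-542-3p were 1.08, 0.78 and 0.36, while that of miR-322-5p stayed negative. Of these members only miR-322-5p was detected on all 4 hyperoxia P14.5 arrays, although its call had the highest adjusted p. That call was lost on leaving out 9 of the 16 arrays in turn (adjusted p from 0.0503 to 0.0674), and had an adjusted p of 0.00113 without the low-labelling arrays. The call of miR-542-3p was lost without hyperoxia P5.5 replicate 24 or normoxia P14.5 replicate 26 (adjusted p = 0.0507 and 0.0501). The endothelial miR-126-3p went from 12.64 to 11.80 in hyperoxia and had a change of 0.33 in normoxia (difference -1.16, adjusted p = 0.0288), a call lost on leaving out 5 of the 16 arrays (hyperoxia P5.5 replicates 21 and 24, normoxia replicates 18, 26 and 27, adjusted p from 0.0507 to 0.0579). In the miR-17 clusters, the miR-29 family and the erythroid and muscle lists 0 members passed, and in the let-7 family 1 of 11 did, let-7b-5p (-1.10, adjusted p = 0.0341, lost on leaving out 10 of the 16 arrays, up to 0.0696). The miR-34 family had 2 negative differences, miR-449a-5p (-1.07, adjusted p = 0.0125) and miR-34c-3p (-1.63, adjusted p = 0.0456, lost on leaving out 14 of the 16 arrays, up to 0.0954), and that of miR-34a-5p was 0.52 (adjusted p = 0.107). Of the remaining lists, the miR-200 family had 1 (miR-200a-3p, -0.73), the smooth muscle and mesenchymal miRNAs 1 positive (miR-199a-5p, 1.03), the injury and oxygen miRNAs 1 positive and 2 negative, and the other organs 0.

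**Figure D4:**
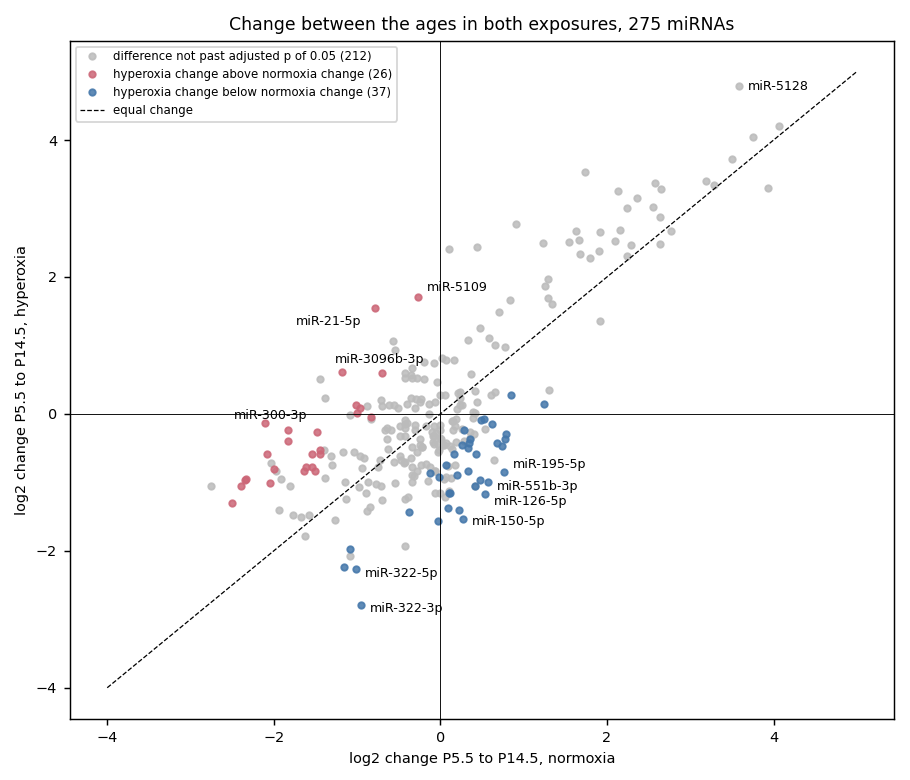
Log2 change from P5.5 to P14.5 in normoxia (x axis) and hyperoxia (y axis) for 275 miRNAs; points are coloured by the test of the difference between exposures (26 higher and 37 lower in colour, the rest grey) and the dashed line marks equal change. The falls that were larger in normoxia lie at the lower left above the line, miR-150-5p and miR-551b-3p lie at the lower right, and the large rises at the upper right, such as miR-5128 (4.79 and 3.58), have no call.

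Set beside the earlier ages, the levels in hyperoxia followed separate courses. The mean of miR-322-5p was 11.97 ± 0.04 at P2.5, 11.59 ± 0.08 at P3.5, 10.92 ± 0.13 at P5.5 and 8.64 ± 0.79 at P14.5 (SD, n = 4), and in normoxia 11.92, 11.69, 11.37 and 10.37. The exposures were within their spread at P2.5 and apart from P5.5 on. For miR-34a-5p the means in hyperoxia were 8.97 ± 0.06, 9.33 ± 0.16, 10.53 ± 0.27 and 10.75 ± 0.23, and in normoxia 8.86, 8.81, 8.81 and 8.52. Its level in hyperoxia was thus already high at P5.5, and the last pair of ages did not differ beyond their spread. The means of miR-21-5p in hyperoxia were 12.24 ± 0.09, 12.31 ± 0.09, 12.57 ± 0.33 and 14.11 ± 0.42, those of the first 3 ages within 1 log2 unit and the last apart from them.

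**Figure D5:**
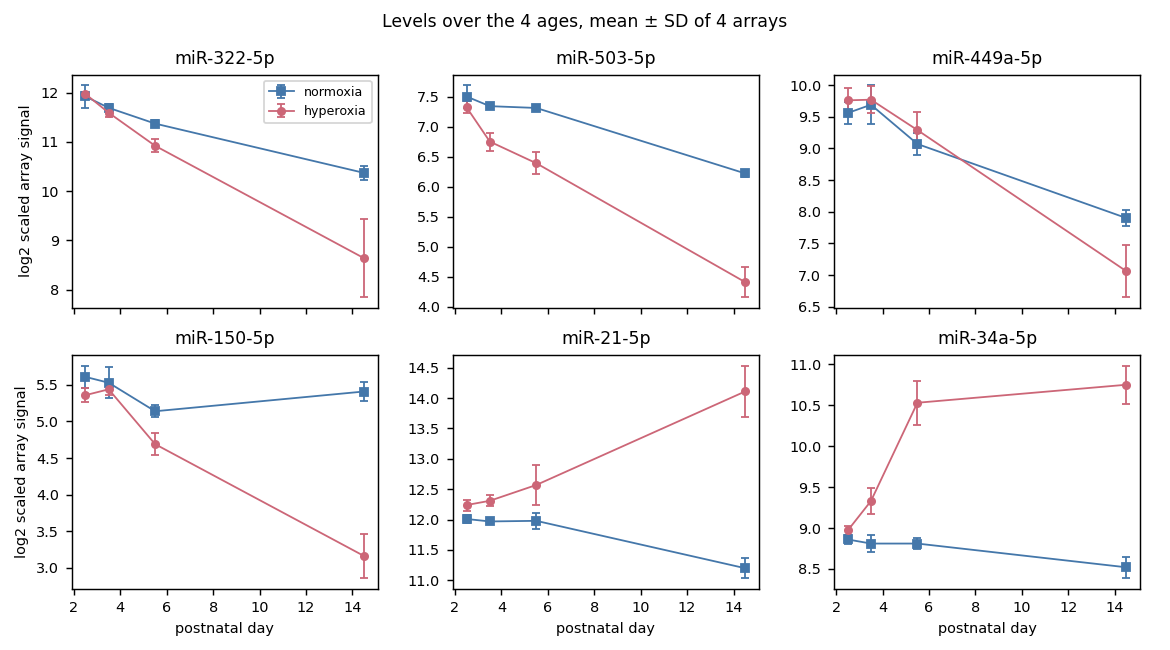
Mean ± SD (n = 4 arrays) of log2 scaled array signal by postnatal day in normoxia (blue squares) and hyperoxia (red circles) for 6 miRNAs; each panel has its own y axis. Between P5.5 and P14.5 in hyperoxia, miR-322-5p, miR-503-5p, miR-449a-5p and miR-150-5p fell, miR-21-5p rose and miR-34a-5p went from 10.53 to 10.75.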

How the data were processed

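RNA from 32 lung samples was hybridised by the authors to 1-colour (Cy3) mouse miRNA arrays (miRBase 17). The deposited scanner files, made with Agilent Feature Extraction 10.7.3.1 per the labels, held spot intensity on a linear scale after background subtraction, unscaled between arrays, and other values (0 or 1 flags). The deposited series table held log2 signals per miRNA, with 0 columns left unassigned, and how it was made is not given in the sources used here. The label text on labelling describes a cRNA kit.

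Unflagged spots of each of 2754 probes were averaged and arrays scaled to the 75th percentile of the 205 probes well above background on all arrays (median 1166). Probe means per miRNA were raised to a floor of 2.30 units (log2 1.20) and log2 was taken. A miRNA counted as detected on an array if more than 0.5 of the spots of any probe were flagged well above background, and was tested if all 4 arrays of some compared group detected it. The tests used limma 3.58.1 in R 4.3.3 (lmFit and eBayes, two-sided, Benjamini-Hochberg at 0.05), with package data.table, version 1.17.8. They were also run on simulated data with independent noise, of the same SD in every group for a given miRNA. These simulated data lack the wider spread of the hyperoxia P14.5 arrays, so they cannot show how the tests behave under it. Figures used matplotlib 3.10.9. By the study's account the samples of a group came from separate animals. The p-values measure the spread between these samples, and the number of arrays limits precision.

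The miRNAs, the 16 lists, the tests and the alternatives were chosen with earlier results of these data known. Named were the 8 largest rises and falls with non-overlapping ages and the same sign without low-labelling arrays, detected on all 4 arrays of the higher and at least 2 of the lower group, the 4 largest interactions in each direction, the miR-34 family and up to 4 called members of each list. The rule for miRNAs never above background in 1 group gave none.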

Additional observations from a re-analysis of the deposited data

Results flagged for a closer look

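In 4 of 89 groups of 4 arrays of the named miRNAs, 1 array lay far from the other 3, which chance gives in about 1 of 20 groups. These were hyperoxia P14.5 replicate 31 for miR-450b-3p (1.20, nearest 3.54), for miR-542-3p (3.36, nearest 5.23) and for miR-200a-3p (7.85, nearest 8.23), and hyperoxia P5.5 replicate 21 for miR-150-5p (4.47, nearest 4.76). Replicate 31 had the lowest labelling spike-in signal of the 8 arrays, and its part in these values was not tested; the falls without it and replicate 29 were 1.34, 1.09 and 0.77.

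The change from P5.5 to P14.5 differed between hyperoxia and normoxia for 63 miRNAs. The differences (hyperoxia minus normoxia) singled out were 2.32 for miR-21-5p, 1.98 for miR-5109, 1.78 for miR-3096b-3p and 1.60 for miR-300-3p, and -1.80 for miR-150-5p, -1.70 for miR-126-5p, -1.61 for miR-195-5p and -1.57 for miR-551b-3p, each by the limma interaction test.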

How the results depend on the processing

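No paired analysis was possible because the labels number the samples from 1 to 32 and no number is shared between groups. For hyperoxia P14.5 against P5.5 (88 calls), the number was 124 (27 higher, 97 lower) when scaled by the percentile of all probes, 101 (35 and 66) by quantile normalization, 63 by the total gene signal or in the deposited series values, 28 (26 and 2) with normexp, 43 of 132 miRNAs detected on every array, 47 with slide as a fixed block, 170 in a fit over all 32 arrays, 15 by the methods' t-test and 141 without the arrays of low labelling. The following pairs were chosen after seeing the data: without those arrays it was 172 when scaled by all probes, 120 by quantile and 44 (29 and 15) with normexp. Leaving out each array gave 9 to 141. For the difference between exposures (63 calls), the numbers were 2 with all probes, 15 with quantile, 6 with normexp, 25 with total gene signal, 16 in the series values, 32 of 130 miRNAs detected on every array, 98 over 32 arrays, 98 with array weights, 113 without low labelling, 14 without low labelling and with all probes, and 46 to 106 on leaving out each array.

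Scaled by all probes, the hyperoxia change turned to -0.31 for miR-3096b-3p and -0.70 for miR-34a-5p, and without low labelling to -0.30 and -0.25. With normexp it turned to 0.06 for miR-503-5p, 0.54 for miR-450b-3p, 0.21 for miR-542-3p, 0.60 for miR-150-5p, 0.34 for miR-377-3p, 0.50 for miR-300-3p, 0.26 for miR-126-5p, 0.01 for miR-551b-3p and miR-146a-5p, 0.83 for miR-34c-3p, 0.04 for miR-19a-3p, 0.59 for miR-17-3p, 0.67 for miR-322-3p, 0.77 for miR-136-3p, 0.66 for miR-431-5p, 0.88 for miR-30d-3p, 0.48 for miR-30e-3p and miR-375-3p and 0.39 for miR-210-3p. By its construction normexp adds an offset of 50 units before scaling, which on the log2 scale came to 7.41 and 7.89 on replicates 29 and 31 and to at most 6.24 on the other hyperoxia arrays of these ages. Without low labelling, normexp gave 0.06 for miR-34c-3p and miR-30d-3p. The difference between exposures turned to -0.01 for miR-34a-5p with all probes, to 0.16 for miR-34c-5p with total gene signal and to 0 for miR-34c-3p and miR-30d-3p with a higher floor. With normexp it turned to 0.74 for miR-150-5p, 0.08 for miR-126-5p, 0.11 for miR-34c-5p, 1.12 for miR-34c-3p, 0.78 for miR-503-5p, 0.36 for miR-542-3p, 1.08 for miR-322-3p, 1.20 for miR-30d-3p and 0.63 for miR-30e-3p, and without low labelling to 0.17 for miR-150-5p, 0.64 for miR-34c-3p, 0.26 for miR-503-5p, 0.56 for miR-322-3p, 0.68 for miR-30d-3p and 0.11 for miR-30e-3p. The cause of these moves was not tested. Over the named miRNAs and settings, 894 hyperoxia changes kept their direction and side of the threshold, 243 lost the call, 33 gained it and 25 reversed. For the difference these were 628, 153, 7 and 19. Signal over background limits the dim miRNAs, since 27 of the 52 falls were detected on only some P14.5 arrays and 7 on none.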
